A study of Mus musculus with 11 samples.

Results

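The expression of 48 mitosis genes was followed in mouse lung mesenchyme at 2 times after PNX, in which lung tissue is resected (pneumonectomy), and after a sham operation. The 48 genes were taken by symbol from a table of read counts for 24411 gene symbols, and all 48 were among the 16011 genes with enough counts to be tested. By flow cytometry, cells of C57BL6 mice without the surface proteins EpCAM, CD45 and CD31 were collected, a gate meant to leave out epithelial, blood and endothelial cells, and their RNA was sequenced in bulk. The groups were PNX at day 7 after surgery (3 libraries), sham at day 7 (3 libraries), PNX at day 14 (3 libraries) and sham at day 14 (2 libraries). No genotype, transgene or drug is named for any group, and neither the age of the mice nor the extent of the resection is given. It is also not stated whether replicates came from separate or pooled animals, so every p-value measures only how these libraries vary, a spread that may be technical.

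Entry into mitosis is driven by Cdk1 bound to A- and B-type cyclins, after which kinetochores attach the chromosomes to the spindle, the spindle checkpoint holds the cell until attachment is complete, and the anaphase-promoting complex (APC/C) marks cyclin B and securin for destruction. The genes for these proteins are transcribed mainly in late S phase, G2 and mitosis, under the factors B-Myb, FoxM1 and NF-Y and the MuvB complex, and are silent in resting cells. Mesenchymal cells of the adult lung are largely quiescent, and in mice the lung tissue left after pneumonectomy grows. In bulk RNA the number of cells that express such a gene and the amount of RNA in each of those cells cannot be told apart.

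Total counts ranged from 2539628 to 9008592 per library, and the ranges of PNX (2963341 to 7614122) and sham (4082935 to 8362119) at day 7 overlapped. Levels of a gene are given as CPM, the share of a library's counts as parts of 1000000, scaled by TMM factors, which correct for differences in library composition. All 11 mesenchymal markers were detected in every library, among them Dcn at 3593 to 12410 CPM, Col3a1 at 1249 to 5245 CPM, Tcf21 at 8.07 to 33.6 CPM and Thy1 at 7.91 to 57.7 CPM. Transcripts of other cell types were present as well and are given beside the results. Counts on odorant (olfactory and vomeronasal) receptor genes, a background in lung cells, ranged from 89.9 to 1606 CPM of total counts. Sham replicate 3 of day 7 stood apart from its group in the mitosis genes, being the highest of the 3 sham libraries for 44 of the 48.

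At day 7 every one of the 48 mitosis genes had a higher fitted level after PNX than after sham. Their CPM summed to 995.3, 1003 and 735.2 in the PNX libraries and to 166.9, 202.3 and 477.0 in the sham libraries. The lowest PNX sum was therefore above the highest sham sum, and sham replicate 3 lay between the other 2 sham libraries and the PNX group. At an adjusted p under 0.05 (edgeR quasi-likelihood test, Benjamini-Hochberg over all genes tested), 2 of the 48 rose, Mki67 and Ckap2, against 6 of all 16011 genes (0.0375%). At an unadjusted p under 0.05, 34 of the 48 were higher and 0 were lower, beside 4.66% of all genes that were higher at that level. For 36 of the 48 all 3 PNX libraries lay above all 3 sham libraries, as was the case for 9.95% of all genes. The median log2 fold change of the 48 was 1.78, beside 0.0302 for all genes tested, and the values ran from 0.51 for Nusap1 to 3.12 for Cdc25c. The 12 members whose groups overlapped were Nusap1, Nek2, Mybl2, Kif11, Bub1b, Plk1, Aurkb, Top2a, Ndc80, Ube2c, Ttk and Pbk.

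**Figure D1:**
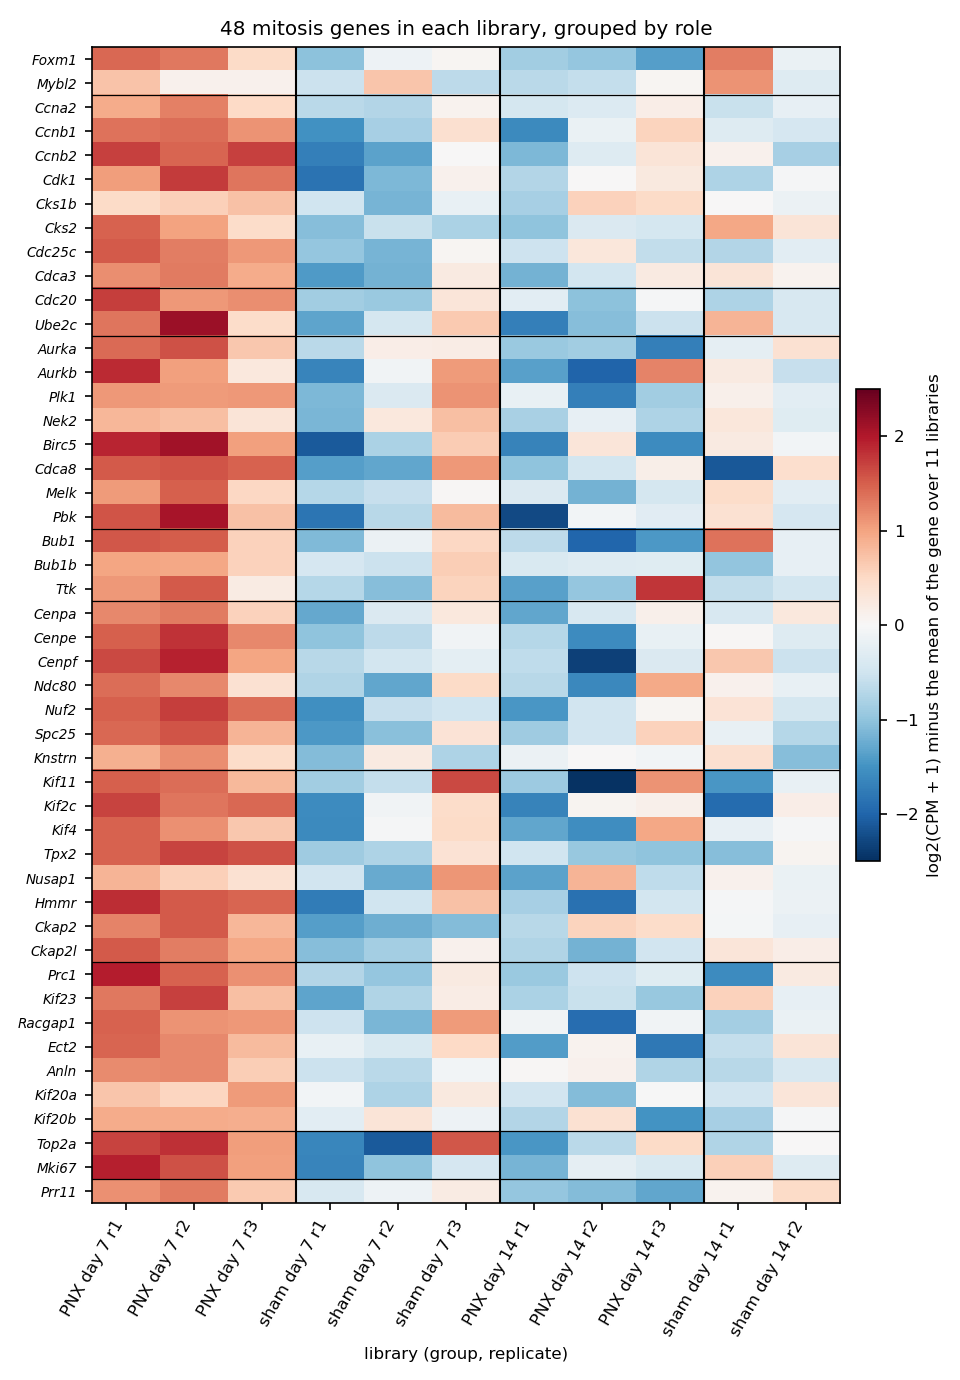
Level of each of the 48 mitosis genes (rows, in blocks by role) in each of the 11 libraries (columns, r = replicate), as log2(CPM + 1) minus the mean of the gene over the libraries, with the colour scale ending at 2.5 in either direction. The 3 PNX columns of day 7 are red nearly throughout, sham replicate 3 of day 7 is higher than the other 2 sham columns of that day for 44 of 48 genes, and the columns of day 14 are mixed.

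Mki67 encodes a coat protein of mitotic chromosomes and is a common marker of cycling cells. It stood at 63.2, 49.2 and 32.8 CPM in the PNX libraries of day 7, against 4.35, 7.29 and 11.6 CPM in the sham libraries. The lowest PNX library was well above the highest sham library, and the log2 fold change was 2.64 ± 0.44 (SE, edgeR adjusted p = 0.0337). Ckap2, whose product binds and stabilises spindle microtubules, stood at 16.3, 20.2 and 11.9 CPM after PNX and at 1.82, 2.14 and 2.46 CPM after sham. Its 3 sham libraries lay close together, and the log2 fold change was 2.89 ± 0.48 (edgeR adjusted p = 0.0337). Top2a, which encodes the topoisomerase that untangles chromosomes, stood at 42.7, 47.2 and 27.0 CPM after PNX and at 3.37, 2.14 and 38.5 CPM after sham. Sham replicate 3 was above a PNX library for this gene, and the difference of 1.39 ± 0.97 on the log2 scale did not pass (edgeR adjusted p = 0.644).

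The calls of both genes depended on which libraries shared the fit. Ckap2 lost its call without any 1 of the 3 PNX libraries of day 7, without sham replicate 2 or 3 of day 7, or without PNX replicate 2 or 3 of day 14, and Mki67 lost it without PNX replicate 1 or sham replicate 2 of day 7 or PNX replicate 2 or 3 of day 14 (edgeR adjusted p between 0.0541 and 0.128). Without sham replicate 3 of day 7, 5 members passed (Ccnb2, Cdk1, Mki67, Top2a and Tpx2), where 0.0626% of all genes did, and the median log2 fold change of the 48 was 2.48. Without sham replicate 1 of day 7, 3 passed, where 2.66% of all genes did. Without sham replicate 1 of day 14, or without replicate 2, 6 passed, where 0.486% and 0.514% of all genes did. With DESeq2 19 of the 48 passed and with limma voom 25, all higher after PNX, where these tools called 2.85% and 5.13% of all genes. In each of the 23 other settings run, 11 of which left out 1 library, all 48 were higher after PNX at day 7.

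**Figure D2:**
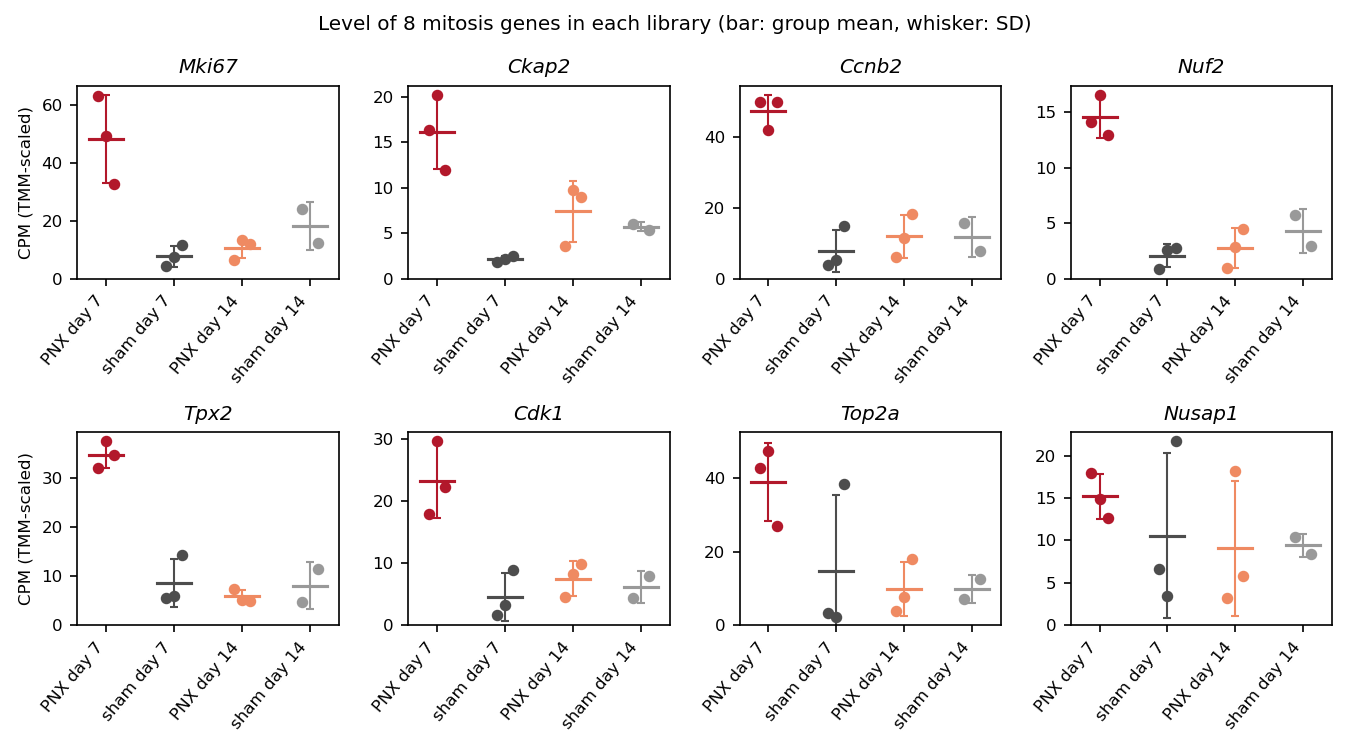
CPM of 8 of the mitosis genes in each library (points), with the group mean (bar) and SD (whisker), by surgery and day. The PNX libraries of day 7 lie above all sham libraries of that day for the first 6 genes, whereas sham replicate 3 reaches the PNX range for Top2a and Nusap1.

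The start sites of these genes were set beside a pair of sequence elements known from promoters of this class, the CCAAT box bound by NF-Y and the cell cycle homology region (CHR) bound by MuvB. RefSeq windows of GRCm38.p6, from base -250 to base 50 of the annotated start, were at hand for 41 of the 48. The windows of the 2 genes that passed are shown first, then that of Ccnb2, the member of next smallest p, that of Top2a, which held the most matches, and that of Nuf2, which held none. Capitals mark the CCAAT box, which reads ATTGG where it lies on the other strand. They also mark the CHR in its form TTTGAA, on the other strand written as TTCAAA, and the palindromic CHR form TTCGAA, counted once. A box and a CHR may overlap by a base. Each line reads 5′ to 3′ along the gene. All 5 lie on the minus strand, Mki67 at chr7:135716330-135716629, Ckap2 at chr8:22185770-22186069, Ccnb2 at chr9:70421505-70421804, Top2a at chr11:99024140-99024439 and Nuf2 at chr1:169531415-169531714.
Mki67: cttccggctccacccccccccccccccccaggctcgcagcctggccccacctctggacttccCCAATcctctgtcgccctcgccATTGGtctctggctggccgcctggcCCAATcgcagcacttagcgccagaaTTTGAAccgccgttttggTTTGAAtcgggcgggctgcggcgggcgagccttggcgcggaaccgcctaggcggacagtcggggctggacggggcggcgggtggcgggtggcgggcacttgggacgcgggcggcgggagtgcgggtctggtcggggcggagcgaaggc
Ckap2: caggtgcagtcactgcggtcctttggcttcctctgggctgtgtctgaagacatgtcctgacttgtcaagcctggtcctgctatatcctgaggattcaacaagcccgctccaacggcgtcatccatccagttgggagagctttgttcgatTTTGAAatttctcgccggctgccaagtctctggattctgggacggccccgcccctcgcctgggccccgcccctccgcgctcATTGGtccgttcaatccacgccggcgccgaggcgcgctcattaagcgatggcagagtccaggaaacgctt
Ccnb2: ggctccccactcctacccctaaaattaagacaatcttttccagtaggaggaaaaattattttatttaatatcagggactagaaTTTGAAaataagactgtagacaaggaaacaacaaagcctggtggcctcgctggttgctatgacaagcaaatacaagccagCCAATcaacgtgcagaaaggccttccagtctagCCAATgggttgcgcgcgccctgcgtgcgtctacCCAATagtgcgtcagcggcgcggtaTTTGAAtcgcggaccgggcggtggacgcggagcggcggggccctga
Top2a: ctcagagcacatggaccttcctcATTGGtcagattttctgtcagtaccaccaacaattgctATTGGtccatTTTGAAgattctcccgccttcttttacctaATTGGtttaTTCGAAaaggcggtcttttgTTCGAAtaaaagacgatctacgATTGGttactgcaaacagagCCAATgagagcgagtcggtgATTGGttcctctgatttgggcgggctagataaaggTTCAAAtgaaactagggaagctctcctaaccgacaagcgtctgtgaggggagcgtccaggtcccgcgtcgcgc
Nuf2: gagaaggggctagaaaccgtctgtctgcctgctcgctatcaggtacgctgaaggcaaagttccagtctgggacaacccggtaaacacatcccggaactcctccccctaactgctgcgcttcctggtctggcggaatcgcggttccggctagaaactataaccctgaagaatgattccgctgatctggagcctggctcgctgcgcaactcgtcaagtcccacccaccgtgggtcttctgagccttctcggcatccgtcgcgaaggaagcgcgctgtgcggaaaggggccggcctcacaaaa

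A CHR match was found in 31 of the 41 windows (75.6%), against 19.4% of the windows of 27025 genes, and a CCAAT match also in 31 (75.6%), against 37.9%. At least 2 CCAAT matches were held by 56.1% of the mitosis genes and 12.2% of all genes, and both elements by 27 of the 41 (65.9%) and 7.7% of all. E2F letters (TTTGGCGC or TTTCGCGC, either strand) were in 1 of the 41 windows, that of Cdk1 (2.44%, against 0.833% of all genes). The CHR matches were most frequent just after the annotated start, in bases 1 to 25 (34.1% of the mitosis genes, 1.37% of all genes), and the CCAAT matches in the 25 bases before it (39.0% of the mitosis genes, 4.16% of all genes). In the Ccnb2 window the 3 CCAAT boxes began at -87, -54 and -21 and a TTTGAA at 5, the spacing and order described for this class, whereas in the Mki67 window all matches lay upstream, between -188 and -98. The fold changes at day 7 did not separate by these letters: the median log2 fold change was 1.78 for the 27 genes with both elements (0.78 to 2.89) and 1.59 for the 6 with neither (0.51 to 2.82), a description with no test. A match is a run of letters and not a measured binding site. No other forms of the CHR were searched for, so a window counted as holding neither element lacks only the letters given.

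**Figure D3:**
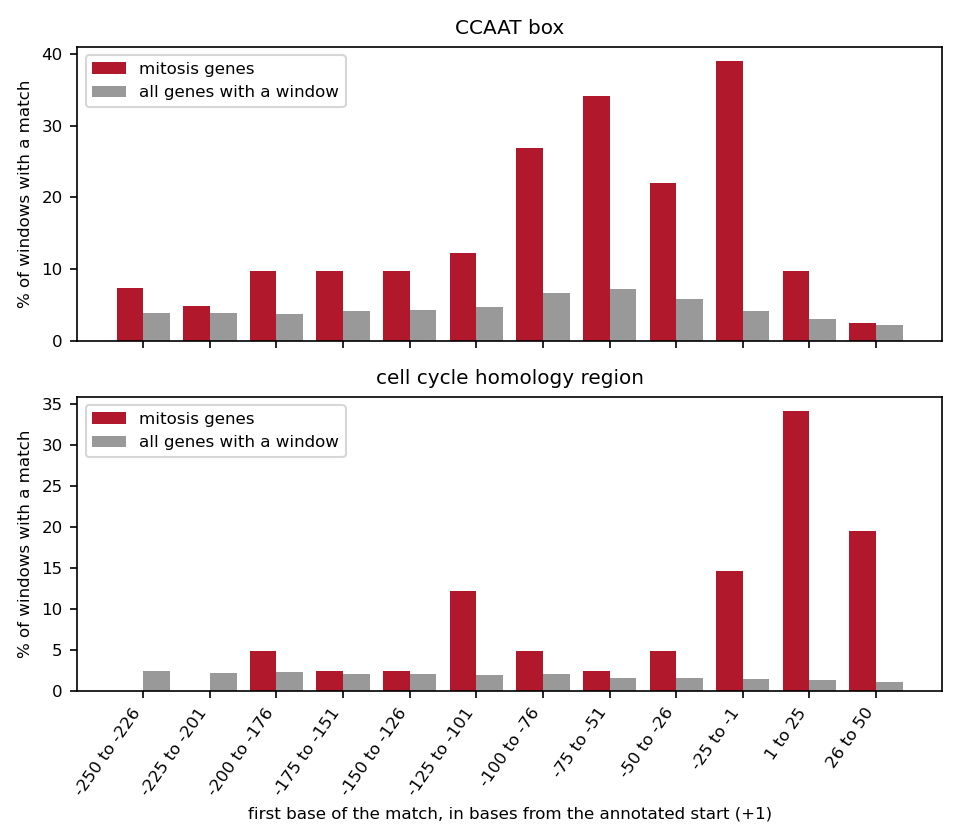
Share of promoter windows with a match that begins in each 25-base bin around the annotated start, for the 41 mitosis genes with a window and for 27025 genes, with the CCAAT box above and the cell cycle homology region below. The mitosis genes exceed all genes most in the bins next to the start, with 39.0% for CCAAT just before it and 34.1% for the homology region just after it.

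All 8 cyclins, Cdk1 and its regulators were higher after PNX at day 7 at an unadjusted p under 0.05, with groups that did not overlap, and 0 of the 8 passed adjustment (smallest edgeR adjusted p = 0.0606). Ccnb2, a B-type cyclin that activates Cdk1, stood at 50.01, 41.99 and 50.1 CPM after PNX and at 3.79, 5.14 and 14.8 CPM after sham (log2 fold change 2.57 ± 0.50, adjusted p = 0.0606). Cdk1, the kinase itself, stood at 17.8, 29.6 and 22.2 CPM after PNX and at 1.54, 3.21 and 8.82 CPM after sham (2.34 ± 0.54, edgeR adjusted p = 0.0852). In both the highest sham value was that of replicate 3. Cks2, a small subunit of Cdk complexes, stood at 17.1, 12.2 and 7.95 CPM after PNX and at 2.10, 3.43 and 2.75 CPM after sham (2.17 ± 0.49, edgeR adjusted p = 0.0842), so that sham replicate 3 was not the high one here. The largest fitted change of all 48, that of the phosphatase gene Cdc25c, rested on few reads, namely 32, 16 and 29 counts after PNX and 1, 0 and 9 after sham (3.12 ± 1.08, edgeR adjusted p = 0.213). Per kilobase of exon the small subunit gene Cks1b was the most abundant of the 48, at 27.1 CPM per kb over all libraries. Ccnb2 followed at 13.4 and Cks2 at 9.79 CPM per kb, whereas Cdc25c was the least abundant at 0.35 CPM per kb. The length used is the union of all annotated exons of a gene, which can exceed that of the RNA present, so this order depends in part on the annotation.

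Of the transcription factors of this programme, Foxm1 stood at 7.63, 6.91 and 3.46 CPM in the PNX libraries of day 7, against 0.561, 1.93 and 2.31 CPM in the sham libraries. Its groups did not overlap (log2 fold change 1.90 ± 0.77, edgeR adjusted p = 0.295). Mybl2, which encodes B-Myb, stood at 3.05, 1.66 and 1.67 CPM after PNX and at 0.701, 3.00 and 0.579 CPM after sham. Sham replicate 2 lay between the PNX libraries, and the gene had one of the 3 smallest differences of the 48 (0.61 ± 0.96, edgeR adjusted p = 0.842). Among the APC/C genes, the activator gene Cdc20 stood at 31.4, 19.6 and 20.8 CPM after PNX and at 4.35, 4.07 and 10.99 CPM after sham (1.88 ± 0.46, edgeR adjusted p = 0.0984). The groups did not overlap for Cdc20, whereas for Ube2c, the ubiquitin-conjugating enzyme of the complex, sham replicate 3 (8.97 CPM) was above PNX replicate 3 (7.69 CPM).

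Of the 8 genes for mitotic kinases and the chromosomal passenger complex, 5 were higher at an unadjusted p under 0.05 and 4 did not overlap, with a median log2 fold change of 1.62. Aurka, a kinase of spindle poles, stood at 11.5, 13.3 and 6.54 CPM after PNX and at 1.96, 4.29 and 4.34 CPM after sham (1.56 ± 0.58, edgeR adjusted p = 0.243). Nek2, a centrosome kinase, stood at 6.78, 6.35 and 4.49 CPM after PNX and at 0.982, 4.29 and 6.36 CPM after sham. The groups overlapped through sham replicate 3 (0.60 ± 0.66, edgeR adjusted p = 0.772). Birc5, which encodes the passenger protein survivin, had the largest difference of this set, at 2.23 ± 0.75 (adjusted p = 0.224). Of the spindle checkpoint kinases, Bub1 did not overlap, at 10.5, 10.2 and 4.87 CPM after PNX against 0.841, 2.57 and 4.63 CPM after sham (1.66 ± 0.82, edgeR adjusted p = 0.417), while Bub1b and Ttk overlapped.

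Of the 7 centromere and kinetochore genes, 6 were higher at an unadjusted p under 0.05 and 6 did not overlap, Ndc80 being the exception to both. Nuf2, a subunit of the Ndc80 complex that binds microtubules, stood at 14.1, 16.6 and 12.95 CPM after PNX and at 0.841, 2.57 and 2.75 CPM after sham (2.82 ± 0.61, edgeR adjusted p = 0.0767). The groups did not overlap, and this was the third largest difference of the 48, while the promoter window shown above held no match to the letters of either element. Cenpe, a kinetochore motor, stood at 16.6, 21.0 and 13.5 CPM after PNX and at 2.10, 3.00 and 4.92 CPM after sham (2.33 ± 0.53, edgeR adjusted p = 0.0817). Cenpf, a protein of the outer kinetochore, stood at 24.6, 30.1 and 15.3 CPM after PNX and at 4.07, 4.93 and 5.93 CPM after sham (2.22 ± 0.57, edgeR adjusted p = 0.107). In each of these 3 genes the lowest PNX library was above the highest sham library by more than the range of the sham group.

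Besides Ckap2, the spindle set of 8 genes held 4 at an unadjusted p under 0.05. Tpx2, which activates the Aurora A kinase on spindle microtubules, stood at 32.0, 37.6 and 34.7 CPM after PNX and at 5.47, 5.999 and 14.3 CPM after sham (2.01 ± 0.43, edgeR adjusted p = 0.0767). The 3 PNX libraries differed little from each other. Ckap2l, a paralogue of Ckap2, stood at 21.0, 17.4 and 13.8 CPM after PNX and at 2.66, 3.21 and 7.23 CPM after sham (1.98 ± 0.46, edgeR adjusted p = 0.0852). Nusap1, a microtubule-bundling protein gene, had the smallest difference of the 48, with 18.0, 14.9 and 12.7 CPM after PNX and 6.59, 3.43 and 21.7 CPM after sham (0.51 ± 0.62, edgeR adjusted p = 0.793). Here sham replicate 3 was the highest of the 6 libraries, as it was for the motor gene Kif11 (18.95 CPM, against 10.25 to 16.95 CPM after PNX). Exons of Nusap1 overlap those of Oip5, and exon overlaps with another gene of the table were also found for Ccna2, Cdc20, Ube2c, Cdca8, Kif4, Prc1 and Kif20a, so that reads of these pairs may not be told apart.

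All 7 genes of the central spindle and cytokinesis had groups that did not overlap, with a median log2 fold change of 1.27. Prc1, which bundles the microtubules of the central spindle, stood at 49.0, 34.8 and 27.3 CPM after PNX and at 6.73, 5.57 and 14.0 CPM after sham (2.07 ± 0.48, edgeR adjusted p = 0.0852). Anln, which encodes the actin-binding protein anillin of the cleavage furrow, stood at 34.6, 34.8 and 22.9 CPM after PNX and at 9.82, 8.78 and 13.9 CPM after sham (1.499 ± 0.36, edgeR adjusted p = 0.0982). The motor gene Kif20a was among the most abundant per kilobase of exon (5.98 CPM per kb over all libraries) and had the smallest difference of this set, 0.94 ± 0.37 on the log2 scale (edgeR adjusted p = 0.281). Its exons overlap those of Cdc23, and the part of Cdc23 reads in both values was not tested.

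**Figure D4:**
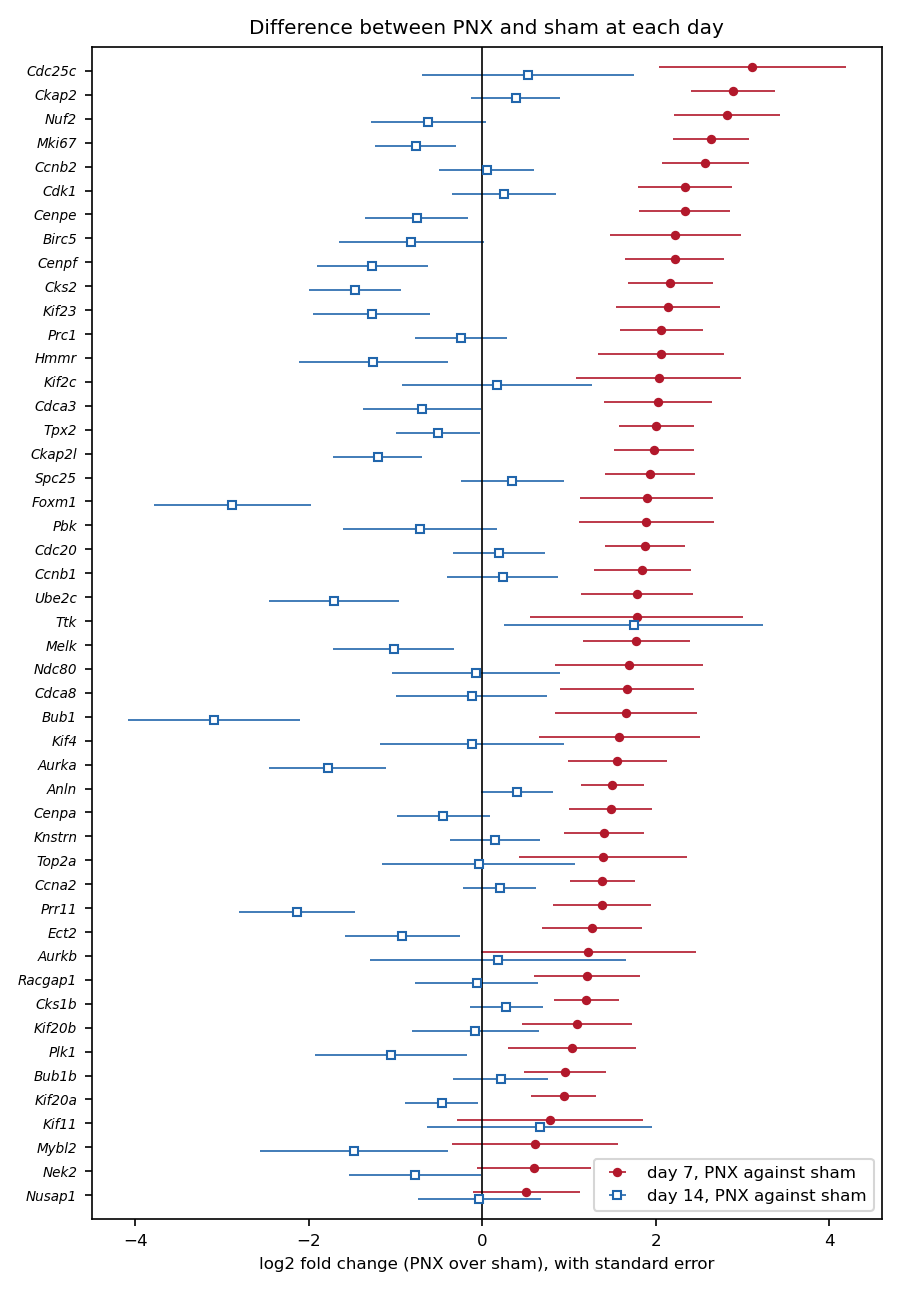
Log2 fold change of PNX over sham with its standard error for each of the 48 mitosis genes at day 7 (filled circles) and at day 14 (open squares), ordered by the value at day 7. At day 7 all 48 points lie right of 0, from 0.51 to 3.12, and at day 14 16 lie right and 32 left of it.

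Markers of the mesenchyme and of other cell types were measured beside these differences. Of the 11 mesenchymal markers 3 were higher after PNX at day 7 and 8 lower (1 and 3 at an unadjusted p under 0.05), with sums of 17260 to 23730 CPM after PNX and 17610 to 27980 CPM after sham. Of 7 endothelial markers 6 were higher after PNX at day 7, 0 of them at an unadjusted p under 0.05, with a median log2 fold change of 1. Their CPM summed to 936.6, 430.4 and 126.5 in PNX replicates 1, 2 and 3 and to 243.8, 513.8 and 218.5 in the sham replicates. As with the mitosis genes, PNX replicate 3 had the lowest sum of the PNX libraries. Of 8 epithelial markers 4 were higher and 4 lower after PNX at day 7, with a median of -0.408. At an unadjusted p under 0.05, 2 were higher, Krt8 and Krt18 (Krt18 1.64 ± 0.35, edgeR adjusted p = 0.0752), and 0 were lower. The whole list of 8 summed to 819.4 to 2300 CPM after PNX and 174.3 to 12750 CPM after sham. The leukocyte list of 10 summed to 105.8 to 168.5 CPM after PNX and 107.0 to 674.3 CPM after sham. Of the highest of these sums, that of sham replicate 2, Lyz2 alone gave 608.5 CPM. The erythroid list of 8 summed to 3739 to 24120 CPM after PNX and 4999 to 17780 CPM after sham. The 3 plasma cell markers measured summed to 146.1 to 436.4 CPM after PNX and 52.9 to 325.9 CPM after sham, and the mesothelial list of 5 to 748.3 to 1843 CPM after PNX and 601.6 to 3056 CPM after sham. In the PNX and sham libraries of day 7 the defining markers Pecam1, Epcam and Ptprc were all above 0. Receptor background took 296.6 to 1195 CPM of total counts after PNX and 89.9 to 635.1 after sham. With it as a covariate all 48 genes were still higher after PNX (median 1.80) and 0 passed, where 0.0125% of all genes did. The part of the other cell types in the result was not tested.

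The other genes of the cell cycle were read from lists by function. Of 71 further mitosis genes tested, 68 were higher and 3 lower after PNX at day 7, 25 higher at an unadjusted p under 0.05, 0 past adjustment with edgeR, with a median of 1.07. Cdkn3, a phosphatase gene acting on Cdks, had the smallest p among them, at a mean of 9.80 CPM after PNX and 1.29 CPM after sham (2.91 ± 0.61, adjusted p = 0.0752). The 59 genes of DNA replication and the G1/S transition were read in the same way: 48 were higher and 11 lower, 8 higher and 1 lower at an unadjusted p under 0.05, with a median of 0.383. Gins2, of the replicative helicase, averaged 11.4 CPM after PNX and 3.58 CPM after sham (1.66 ± 0.48, edgeR adjusted p = 0.147), and Tk1, thymidine kinase, 14.9 CPM after PNX and 4.66 CPM after sham (1.68 ± 0.55, edgeR adjusted p = 0.188). The log2 ratio of the summed mitosis genes to the summed replication genes was -0.34, -0.09 and -0.71 in the PNX libraries and -2.35, -1.78 and -1.47 in the sham libraries of day 7, so that the mitosis genes were higher relative to the replication genes in each PNX library than in any sham library.

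Genes of the G1 phase, of quiescence and of the complexes that act on the mitosis genes did not share a direction. Of 10 genes of the G1 cyclins, their kinases and growth regulators, 3 were higher and 7 lower after PNX at day 7 (median -0.258). Ccnd3, a D-type cyclin, averaged 53.1 CPM after PNX and 183 CPM after sham (-1.79 ± 0.45, edgeR adjusted p = 0.103). Of 18 Cdk inhibitor and quiescence genes 7 were higher and 11 lower, with Foxo3, a transcription factor of quiescence, at a mean of 2.34 CPM after PNX and 14.98 CPM after sham (-2.69 ± 0.81, edgeR adjusted p = 0.153). Of 12 MuvB and DREAM subunits 3 were higher and 9 lower, 0 of them at an unadjusted p under 0.05. Of 16 genes for the APC/C and its activator Cdh1, 9 were higher and 7 lower, and Fzr1, which encodes Cdh1, averaged 6.68 CPM after PNX and 19.7 CPM after sham (-1.56 ± 0.43, edgeR adjusted p = 0.133).

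**Figure D5:**
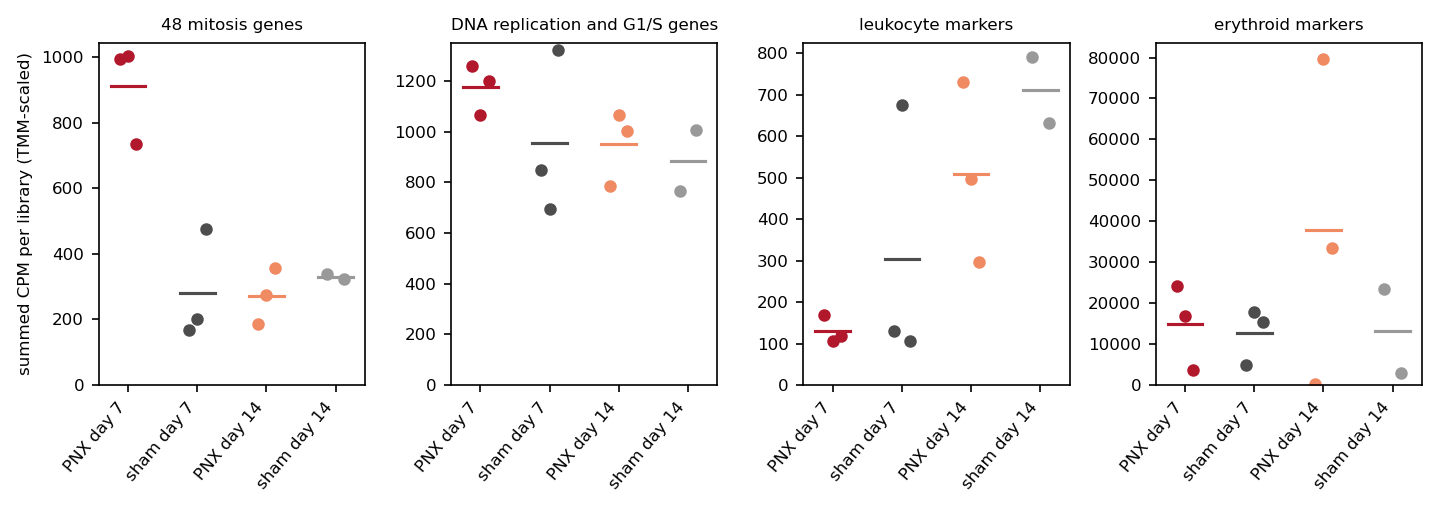
CPM summed in each library (points, with the group mean as a bar) over the 48 mitosis genes, the DNA replication and G1/S genes, and the leukocyte and erythroid markers, by surgery and day. The mitosis genes of the PNX libraries of day 7 (735.2 to 1003) lie above every other library, while the replication genes of the same libraries overlap the sham group through sham replicate 3 (1321).

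At day 14 the mitosis genes no longer stood higher after PNX. Their CPM summed to 186.1, 274.1 and 358.5 in the PNX libraries and to 337.2 and 324.4 in the sham libraries, and the groups overlapped. Of the 48, 16 were higher and 32 lower, with a median log2 fold change of -0.344 beside -0.0722 for all genes. None passed with edgeR, DESeq2 or limma voom, where these tools called 1 (0.00625%), 109 (0.681%) and 0 (0%) of all genes. At an unadjusted p under 0.05, 0 of the 48 were higher and 7 lower, beside 3.19% of all genes higher and 3.63% lower, and for 10 of the 48 all PNX libraries lay below both sham libraries, beside 8.28% of all genes. With each of the 11 libraries left out in turn, 9 to 22 of the 48 were higher after PNX and the median ran from -0.809 to -0.103. The fewest were higher without PNX replicate 3 of day 14, and 22 were higher without PNX replicate 1 or sham replicate 2 of that day.

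The 4 genes of smallest p at day 14 were lower after PNX. Prr11, a gene of mitotic progression, stood at 1.12, 0.939 and 0.673 CPM after PNX and at 3.35 and 4.75 CPM after sham (-2.13 ± 0.67, edgeR adjusted p = 0.444). Foxm1 stood at 0.744, 0.626 and 0.224 CPM after PNX, which were 4, 4 and 1 counts, and at 6.70 and 1.83 CPM after sham (-2.88 ± 0.91, edgeR adjusted p = 0.449). Bub1 stood at 1.49, 0 and 0.448 CPM after PNX and at 9.05 and 2.43 CPM after sham (-3.09 ± 0.99, edgeR adjusted p = 0.476). For Foxm1 and Bub1 the higher sham value was that of replicate 1, the shallowest library. Cks2 stood at 2.23, 4.07 and 3.81 CPM after PNX and at 11.7 and 7.18 CPM after sham, with both sham libraries high (-1.46 ± 0.53, edgeR adjusted p = 0.583). Mki67, at 6.51, 13.3 and 11.9 CPM after PNX and 24.1 and 12.4 CPM after sham, overlapped (-0.77 ± 0.47, edgeR adjusted p = 0.784), as did Ckap2, at 3.54, 9.71 and 8.97 CPM after PNX and 6.03 and 5.35 CPM after sham (0.39 ± 0.51, edgeR adjusted p = 0.891).

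The same marker lists were measured beside the values of day 14. All 10 leukocyte markers were lower after PNX, 7 of them at an unadjusted p under 0.05, with sums of 297.1 to 729.5 CPM after PNX and 630.6 and 791.6 CPM after sham. Lyz2 made up most of each sum, at 254.5 to 681.1 CPM after PNX and 475.2 and 647.2 CPM after sham. For 7 of the 10 markers all PNX libraries lay below both sham libraries, beside 8.28% of all genes. Plasma cell markers summed to 61.2 to 195.5 CPM after PNX and to 850.3 and 968.4 CPM after sham, and Jchain, of secreted antibodies, made up most of both sham sums. Ptprc, the gene of the gated CD45, was at 10.02 to 16.4 CPM after PNX and 17.8 and 51.0 CPM after sham. All 5 mesothelial markers were higher after PNX, with sums of 916.6 to 1480 CPM after PNX and 262.4 and 1099 CPM after sham, and Wt1 stood at 142.4, 271 and 357.9 CPM after PNX and at 16.1 and 19.5 CPM after sham (3.85 ± 0.65, edgeR adjusted p = 0.0652). Of the 11 mesenchymal markers 8 were higher after PNX and 3 lower, 6 of the 8 and 1 of the 3 with groups that did not overlap. Of all 16011 genes, 1533 were higher and 1326 lower without overlap. The mesenchymal markers summed to 20040 to 26580 CPM after PNX and to 9852 and 17560 CPM after sham. The sums of the epithelial list (7706 to 17200 CPM after PNX, 2855 and 12680 CPM after sham), the endothelial list (315.3 to 541.7 CPM after PNX, 322.7 and 446.4 CPM after sham) and the erythroid list (257.7 to 79700 CPM after PNX, 3028 and 23460 CPM after sham) overlapped. Receptor background took 123.9 to 441.9 CPM of total counts after PNX and 90.8 and 1606 after sham. The part of these cells and of the background in the mitosis gene values of day 14 was not tested.

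Within PNX, all 48 mitosis genes were lower at day 14 than at day 7. At an unadjusted p under 0.05, 39 of the 48 were lower, beside 3.13% of all genes, and for 41 all 3 libraries of day 14 lay below all 3 of day 7, beside 9.08% of all genes. The median log2 fold change was -1.95 (all genes -0.0612), from -3.70 for Bub1 to -0.42 for Cks1b. None passed adjustment in the edgeR fit of all groups, which called 0% of all genes, while 17 passed with DESeq2, 17 with limma voom, and 16 when only the PNX libraries of both days were fitted, where these fits called 0.362%, 0.693% and 0.614% of all genes. Tpx2 had the smallest p of all 16011 genes in this comparison, at 7.44, 5.17 and 4.93 CPM at day 14 and 32.0, 37.6 and 34.7 CPM at day 7 (-2.57 ± 0.45, edgeR adjusted p = 0.186). Aurka, at 1.49, 1.57 and 0.448 CPM at day 14 and 11.5, 13.3 and 6.54 CPM at day 7, had a larger difference (-3.10 ± 0.63, edgeR adjusted p = 0.186). Mki67 (-2.19 ± 0.43) and Ckap2l (-2.34 ± 0.48) had the same adjusted p. Ckap2l stood at 3.54, 2.35 and 4.48 CPM in the PNX libraries of day 14. These values share the PNX libraries of day 7 with the comparison at that day. Between the same libraries the epithelial list summed to 7706 to 17200 CPM at day 14 and 819.4 to 2300 CPM at day 7, and the leukocyte list to 297.1 to 729.5 CPM at day 14 and 105.8 to 168.5 CPM at day 7, without overlap. Lyz2 made up most of each leukocyte sum of day 14, at 254.5 to 681.1 CPM, and stood at 59.2 to 116.1 CPM at day 7. Of the single markers, 5 of 8 epithelial and 4 of 10 leukocyte ones were higher at day 14, and 6 of the 10 leukocyte ones were lower. Their part in the difference was not tested.

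Within sham, 32 of the 48 were higher and 16 lower at day 14 than at day 7, with a median of 0.224 (all genes 0.0477). Of the 48, 3 were higher at an unadjusted p under 0.05, beside 6.33% of all genes, and 6 did not overlap, beside 12.5% of all genes. With edgeR 0 passed, where it called 0.0187% of all genes, and with DESeq2 1 (Cks2), where it called 4.18% of all genes. The 3 were Cks2 (1.76 ± 0.53, edgeR adjusted p = 0.133), Ckap2 (1.40 ± 0.52, adjusted p = 0.209) and Mki67 (1.22 ± 0.47, adjusted p = 0.219), whose values are given above. Ckap2l had the next smallest p, with 8.38 and 7.54 CPM at day 14 against 2.66, 3.21 and 7.23 CPM at day 7 (0.85 ± 0.51, edgeR adjusted p = 0.487). Of the 10 leukocyte markers 9 were higher at day 14 in these libraries, 5 of them at an unadjusted p under 0.05, and their part was not tested. Without sham replicate 3 of day 7, 46 of the 48 were higher at day 14 and the median was 0.889, with 0 passing, where 0.00626% of all genes did.

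The interaction, that is the log2 fold change of PNX over sham at day 14 minus that at day 7, was below 0 for all 48, with a median of -2.09 (all genes -0.0124). At an unadjusted p under 0.05, 27 of the 48 were below 0, beside 4.6% of all genes. With edgeR 0 of the 48 and 0% of all genes passed. With DESeq2 or limma voom 0 of the 48 passed as well, where these tools called 0.637% and 0% of all genes. The smallest p values were those of Mki67 (-3.41 ± 0.63, edgeR adjusted p = 0.160), Cks2 (-3.63 ± 0.72, adjusted p = 0.168), Ckap2l (-3.19 ± 0.69, adjusted p = 0.203) and Cenpf (-3.48 ± 0.85, adjusted p = 0.283). Cenpf stood at 4.28, 0.626 and 5.38 CPM after PNX and at 12.1 and 4.62 CPM after sham at day 14. Without sham replicate 2 of day 14, 5 members passed, namely Bub1, Cenpf, Cks2, Foxm1 and Mki67, where 2.1% of all genes did. That fit holds a single sham library of day 14, replicate 1, the shallowest and the one of highest receptor background, which is assumed to vary like the other groups. In the mean of both days 41 of the 48 were higher after PNX and 7 lower, 15 were higher at an unadjusted p under 0.05 (3.92% of all genes), and 0 passed with edgeR (0.194% of all genes), with Ckap2 (1.64 ± 0.36, edgeR adjusted p = 0.0667) and Ccnb2 (1.31 ± 0.37, adjusted p = 0.160) nearest. Anln (0.95 ± 0.28, edgeR adjusted p = 0.176) and Cdk1 (1.29 ± 0.41, edgeR adjusted p = 0.219) came next. At day 14 Ccnb2 stood at 6.14, 11.4 and 18.4 CPM after PNX and at 15.8 and 7.79 CPM after sham. Anln stood at 14.9, 15.97 and 8.30 CPM after PNX and at 8.71 and 10.95 CPM after sham, and Cdk1 at 4.47, 8.14 and 9.87 CPM after PNX and at 4.36 and 7.91 CPM after sham. The groups of day 14 overlapped for all 3 of these genes. DESeq2 called Ckap2 and Ccnb2 in the mean of both days, where it called 1.9% of all genes. With edgeR Ckap2 passed without sham replicate 1 of day 7, where 1.2% of all genes did, and without PNX replicate 1 of day 14, where 0.445% did.

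Levels of the 48 genes were correlated across libraries. Over the 1128 pairs of members the median Pearson r of log2 CPM across the 11 libraries was 0.696 (lowest -0.114, highest 0.971), a description of libraries that share depth and group. With the group means removed the median r was 0.411, and 940 of the 1128 pairs were above 0. Pairs of other genes were not measured, so it is not known whether these values exceed the general level in these libraries. Ckap2l had the highest median r with the other members (0.816) and Mybl2 the lowest (0.353). Within PNX at day 7, replicate 3 was the lowest for 39 of the 48, and the exceptions included Ccnb2, Cks1b and Kif20a, for which it was the highest.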

How the data were processed

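RNA of sorted lung mesenchymal cells was measured in 11 libraries. Read counts per gene symbol were deposited by the authors as whole numbers, on mm10 with bcl2fastq 2.20.0.422 per the submitters' processing notes; the aligner, counting tool, annotation and strand setting are not given in the sources used here. Per the labels, RNA was isolated on small columns and a single-cell or low-input kit made the libraries. No columns were left out.

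Groups were taken from the labels. In R 4.3.3, edgeR 4.0.16 fitted 4 group means on all 11 libraries (filterByExpr, TMM, robust quasi-likelihood, 7 residual degrees of freedom), leaving 16011 genes, with Benjamini-Hochberg adjustment over all of them. Standard errors are the absolute log2 fold change divided by the square root of F. CPM values were computed from the deposited counts. Total counts ranged from 2539628 to 9008592, which limits genes of few counts. The steps were tested on simulated data.

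The mitosis genes, the lists and the tests were chosen with earlier results of these data known. Values per library are given for the 12 members of smallest p at day 7, the 4 of smallest p in each other comparison, the 3 of lowest fold change at each day of PNX against sham and all that passed. Genes of other lists were taken by the same rule, up to 4 of smallest p, and those named are mostly given by group means; Top2a, Cdc25c, Birc5, Kif20a, Kif11 and Ube2c were added after their values were seen. Symbols were matched to GENCODE M21 and RefSeq, 23376 directly and 651 through synonyms (98.4%). Alternatives were DESeq2 1.42.0, limma 3.58.1 (voom, sample weights), scaling by RLE or by total counts, no filter, a filter of 1 CPM in 5 libraries, a fit of just the groups set against each other, a replicate block, a covariate for receptor background, a GC offset alone or with that block, leaving out the 3 libraries with most background, and leaving out each library. No replicate pair was identical (chi-square per degree of freedom at least 12.8). Figures were drawn with matplotlib 3.10.9.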

Additional observations from a re-analysis of the deposited data

How the results depend on the processing

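The direction at day 7 held for all 48 mitosis genes in every setting, while the number that passed an adjusted p of 0.05 did not (2 in the fit reported above). It was 19 with DESeq2, 25 with limma voom, 10 with no filter on low counts (0.773% of all genes), 0 with the background covariate, the GC offset, the GC offset with the replicate block, only the groups compared, or without the 3 libraries of highest background, and 0 to 6 with 1 library left out. The median log2 fold change at day 7 was 1.43 to 2.48 with 1 library left out. With the GC offset and replicate block the median at day 14 was -1.07, that of PNX between days -2.56 and that of the interaction -3.11. In PNX between days 17 passed with DESeq2 (0.362% of all genes) and 17 with limma voom (0.693%). In the same comparison 3 passed with no filter (0.0347%) and 16 with only the groups compared (0.614%), against 0 in the fit reported above. In the mean of both days 2 passed with DESeq2 (1.9% of all genes) and 1 with no filter (0.443%), and 0 to 1 with 1 library left out. In the interaction 1 passed with no filter and 0 to 5 with 1 library left out, with a median of -2.95 to -1.59. In sham between days 1 passed with DESeq2 (4.18% of all genes). The median in sham ran from -0.109 to 0.889 with 1 library left out, so its direction was not stable. The summed level in sham at day 14 averaged 346 by total counts in place of 330.8 CPM. The causes were not tested. By total counts all genes had a median of 0.21 at day 7, against 0.0302 with TMM.

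At day 7 the deviations from the group means had r = -0.116, 0.532 and 0.339 for libraries of the same replicate number. For libraries of different number r ran from -0.627 to 0.399, and PNX replicates 1 and 3 went best with sham replicates 2 and 1. At day 14 (0.0995 and 0.183) the 2 sham libraries deviate as mirror images, so these r cannot judge a pairing. The labels do not say what the number marks, and it was not taken as a pairing. With the replicate block 1 member passed at day 7, Ccnb2, where 0.0562% of all genes did. In that fit Mki67 and Ckap2 were at an edgeR adjusted p of 0.0511 each, and the median of the interaction was -2.87.

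The groups held 2 or 3 libraries of unknown origin, and members such as Cdc25c, Foxm1 and Ttk had few counts. The standard errors of the log2 fold changes at day 7 ran from 0.36 for Anln to 1.24 for Aurkb, which sets the size of a difference that these libraries can resolve.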

Other observations

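Some sparsely counted mitosis genes, among them Ttk and Aurkb, had a single high PNX library at day 14. The genes named here were chosen after their values were seen. The checkpoint kinase gene Ttk was at 0, 0.313 and 7.85 CPM in the PNX libraries, with 0, 2 and 35 counts, and at 0.67 and 0.852 CPM in the sham libraries. The passenger kinase gene Aurkb was at 0.558, 0 and 8.52 CPM after PNX and at 3.69 and 1.70 CPM after sham. Both genes were highest in the same PNX library, replicate 3, in which 14 of the 48 mitosis genes were above all sham libraries of day 7, against 2 and 8 in the other PNX libraries of day 14 and 17 and 11 in the sham libraries of day 14.

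Values of 2 cell cycle genes of other lists, neither of which passed the test, follow for day 14. Ccnd3 averaged 24.0 CPM after PNX and 65.1 CPM after sham at day 14 (-1.44 ± 0.49, edgeR adjusted p = 0.516), against a sham mean of 183 CPM at day 7, and Foxo3 averaged 0.708 CPM after PNX and 2.41 CPM after sham at day 14, against a sham mean of 14.98 CPM at day 7. In sham between the days 0 of the 10 G1 genes and 0 of the 18 Cdk inhibitor and quiescence genes passed (smallest edgeR adjusted p 0.169 and 0.157).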
